A study of Mus musculus with 18 samples.

Results

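The set described here holds 60 UCSC transcript identifiers whose read counts were higher with interleukin-6 (IL-6) than without it, at 1% and at 21% oxygen, in cultured mouse chondrocytes. They were selected on measured values of the 12 h libraries and make up 60 of the 63244 identifiers counted. Levels are given as CPM, an identifier's share of its library's assigned reads scaled to the same total in every library. An identifier was kept when its mean over the 12 libraries of 12 h was at least 2 CPM, when the ratio of mean IL-6 to mean untreated level, with 0.5 CPM added to both, was at least 2 in each oxygen condition, and when the IL-6 library lay above the untreated one in all 6 same-numbered pairs. Of the identifiers, 10147 met the level, 126 of those also the ratio at 1% oxygen, 97 the ratio at 21% oxygen and 66 both. The pairs left 64, and 4 of these were set aside by name in the rule and are not described.

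RNA from primary wild-type chondrocytes, the cells of cartilage, was sequenced in 18 libraries, 3 per group. The groups were IL-6 for 12 h in hypoxia (1% oxygen), IL-6 for 12 h in normoxia (21% oxygen), untreated for 12 h in hypoxia, untreated for 12 h in normoxia, untreated at 0 h in hypoxia and untreated at 0 h in normoxia. Cells had been grown in medium with 10% FCS (a serum), and the 12 h step was in medium without serum, with IL-6 or its receptor at 100 ng/ml each according to the protocol text; the sample labels name IL-6 only, so the use of the receptor is uncertain. Nothing in the labels says if the 3 replicates were different mice or cultures. The p-values therefore reflect library-to-library spread, which may be technical.

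IL-6 binds its receptor together with the shared signalling subunit gp130, which activates JAK kinases and the transcription factor STAT3. Chondrocytes respond to IL-6 with altered matrix protease and acute-phase type expression, and a soluble form of the receptor can carry the cytokine to cells with little receptor of their own. Cartilage has no blood vessels, so its cells normally live at low oxygen, where hypoxia-inducible factors are stabilised.

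No source used here pairs these identifiers with gene symbols, so no gene is named, no function is given and the chondrocyte identity was not checked against marker genes. An identifier is 1 transcript, and several may belong to 1 gene. Assigned reads per library ranged from 3088280 to 10241162. Reads that fit more than 1 identifier were not assigned and made up 40.6% to 50.3% of the uniquely aligned reads, so levels of overlapping transcripts rest on part of their reads. A level in these bulk libraries cannot tell fewer expressing cells from less RNA per cell. The 3 hypoxia libraries of replicate 3 were sequenced apart from all others, in lane 8, and the 3 normoxia libraries of replicate 3 likewise in lane 7. Lane 2 held only the 12 h libraries of normoxia replicate 1, with and without IL-6. Lane and oxygen were partly confounded, and for replicate 3 fully so.

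Mean levels of the members over the 12 h libraries ran from 2.37 CPM in uc007oxd.1 to 473 CPM in uc008pla.1, with a median of 21.2 CPM. There were 12 members at 100 CPM or more, 28 between 10 and 100 CPM and 20 under 10 CPM. Counts were above 0 in all 18 libraries for 57 members. All 60 passed the filter on low counts used for testing. Together the members held 0.558% to 0.820% of assigned reads in the hypoxia IL-6 libraries and 0.506% to 0.523% in the normoxia IL-6 libraries. Without IL-6 at 12 h their share was 0.191% to 0.262% in hypoxia and 0.156% to 0.217% in normoxia, and at 0 h, in libraries the rule did not use, it was 0.201% to 0.220% in hypoxia and 0.164% to 0.221% in normoxia. The 6 most abundant members held 43.6% to 64.6% of these reads.

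**Figure D1:**
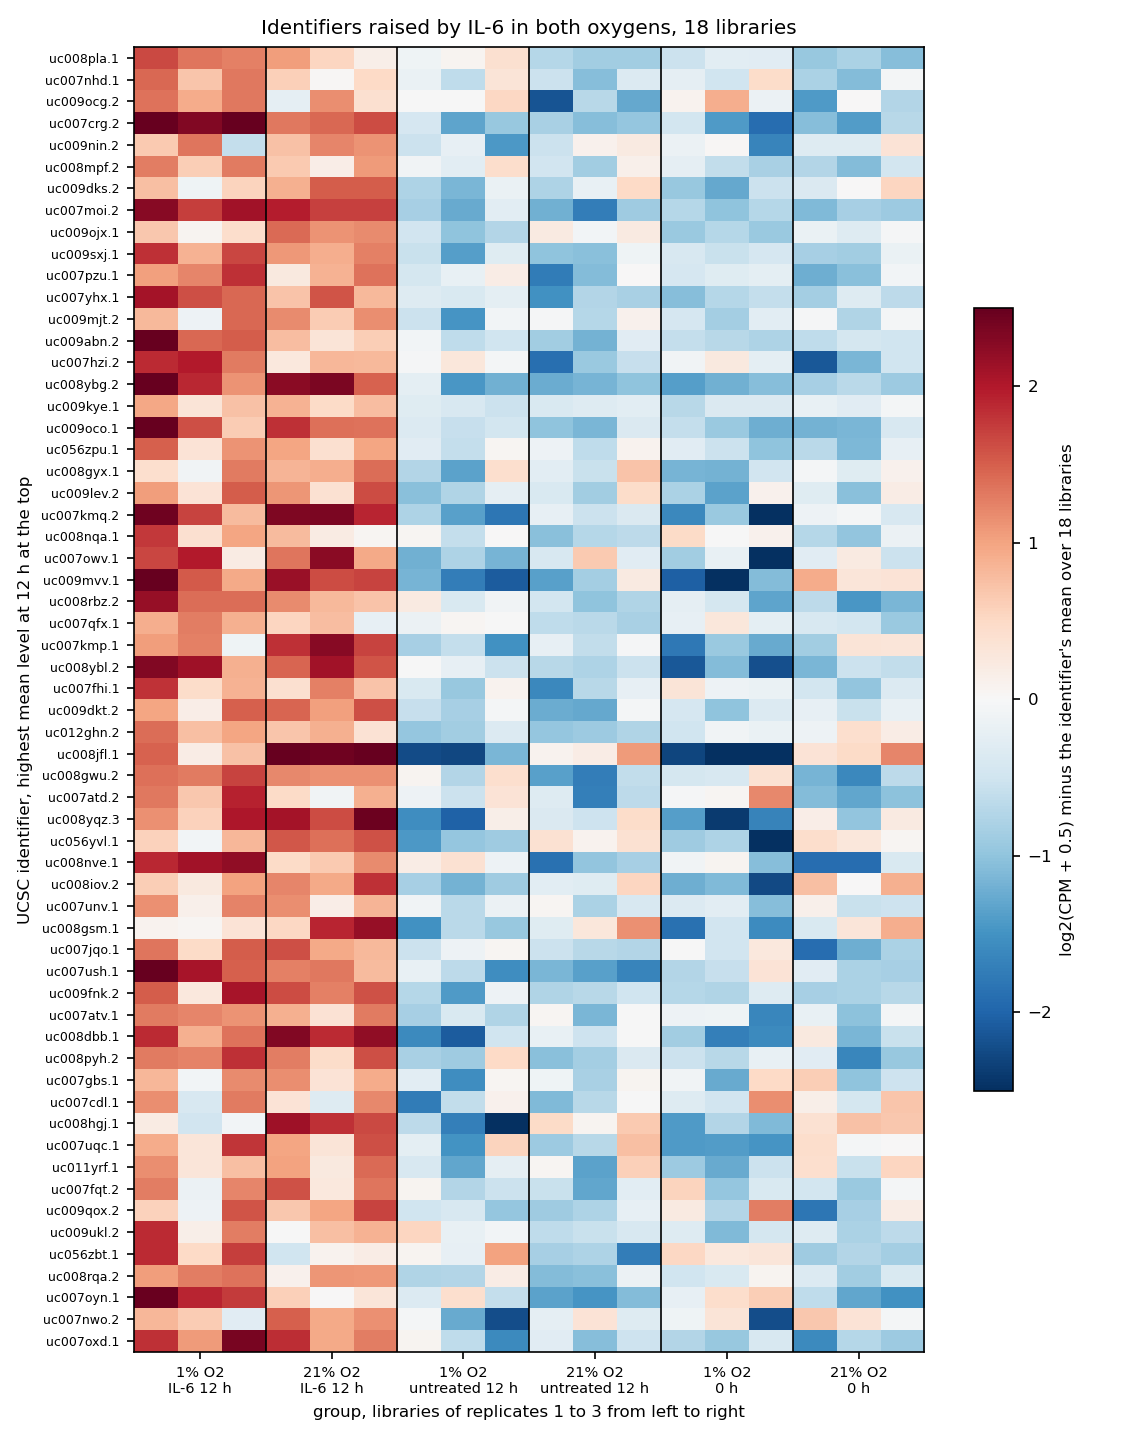
Level of each of the 60 members (rows, most abundant at the top) in the 18 libraries (columns, 3 per group), as log2(CPM + 0.5) minus the identifier's own mean over all libraries. The 6 columns of IL-6 libraries on the left are mostly red and the other 12 mostly blue, and the 0 h columns resemble the untreated 12 h columns.

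The IL-6 ratio chose the members, so its size is a description with no test. The median ratio was 2.86 in hypoxia (range 2.02 to 13.2) and 2.91 in normoxia (range 2.0 to 9.24). On the log2 scale the medians were 1.52 and 1.54, beside -0.04 and -0.01 over all 13432 identifiers tested. In hypoxia 18 members had a ratio of at least 4 and in normoxia 16, with 13 in both. All 3 IL-6 libraries lay above all 3 untreated 12 h libraries for 50 members in hypoxia, where 4.65% of all identifiers tested did so, and for 55 members in normoxia, where 3.69% did; the rule favours this and nothing is read from it. In both conditions 47 members were free of overlap, and of the 13 others 8 overlapped in hypoxia alone, 3 in normoxia alone and 2, uc007cdl.1 and uc007uqc.1, in both. Overlap was most frequent among scarce members. Of the 20 members under 10 CPM 11 were free of it in both conditions, against 25 of the 28 between 10 and 100 CPM and 11 of the 12 at 100 CPM or more.

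The identifier with the largest ratio over both conditions was uc008ybg.2. In hypoxia it was at 267, 102 and 59.2 CPM with IL-6, against 22.7, 9.56 and 11.4 CPM untreated. In normoxia it was at 131, 140 and 76.3 CPM with IL-6, against 11.2, 11.8 and 13.2 CPM untreated. Every IL-6 library lay above every untreated one, and the ratios were 9.49 in hypoxia and 9.24 in normoxia. The IL-6 libraries themselves differed by over 4-fold in hypoxia, with replicate 1 the highest and replicate 3 the lowest.

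The identifier uc007moi.2 was more even between libraries. It stood at 266, 180 and 235 CPM with IL-6 in hypoxia, against 30.1, 22.3 and 44.9 CPM untreated, a ratio of 6.91. In normoxia it stood at 212, 178 and 178 CPM with IL-6, against 23.1, 16.0 and 28.9 CPM untreated, a ratio of 8.18. The IL-6 libraries of hypoxia and normoxia overlapped. Within pairs its log2 ratio averaged 2.83 ± 0.40 in hypoxia and 3.07 ± 0.43 in normoxia (SD, n = 3 pairs each).

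The identifiers uc007kmq.2 and uc007ush.1, both scarcer, complete the members with the largest ratios seen in both conditions. The first had ratios of 8.22 in hypoxia and 5.96 in normoxia, at means of 76.4 and 102 CPM with IL-6, against 8.86 and 16.8 CPM untreated. For uc007ush.1 they were 6.86 and 5.73, at means of 19.6 and 9.98 CPM with IL-6, against 2.43 and 1.33 CPM untreated. The pair SD of its log2 ratio was 0.19 in hypoxia and 0.15 in normoxia.

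Of the 6 most abundant members, uc007crg.2 had ratios of 12.1 in hypoxia and 5.29 in normoxia, and uc009ocg.2 of 2.04 and 3.50. The rest of these had ratios from 2.01 to 2.73. Over the 12 members at 100 CPM or more the median ratios were 2.46 in hypoxia and 2.92 in normoxia. Over all 60 members they were 2.86 and 2.91. The identifier uc008pla.1 was at 1012, 807 and 765 CPM with IL-6 in hypoxia, against 297, 337 and 422 CPM untreated. In normoxia it was at 666, 469 and 357 CPM with IL-6, against 195, 175 and 176 CPM untreated. The groups did not overlap in either condition, and the ratios were 2.44 and 2.73. The second in level, uc007nhd.1, had ratios of 2.45 in hypoxia and 2.01 in normoxia, and uc008mpf.2 had ratios of 2.05 and 2.04. For uc009nin.2 the ratios were 2.47 and 2.11, and its hypoxia groups overlapped. They were at 299, 483 and 125 CPM with IL-6, against 131, 166 and 70.2 CPM untreated, with replicate 3 the lowest in both.

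The ratios of the 2 oxygen conditions were similar in most members. The log2 ratios were within 0.5 of each other in 49 of 60, with the larger ratio in hypoxia for 38 and in normoxia for 22. Over the 60 members Pearson's r was 0.77 and Spearman's rho 0.76, from libraries that the conditions do not share but after a choice that asked for a ratio of 2 in both. The difference was not tested, since both ratios chose the members. The median log2 ratio within pairs was 1.78, 1.52 and 1.44 for replicates 1, 2 and 3 in hypoxia and 1.75, 1.62 and 1.35 in normoxia.

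**Figure D2:**
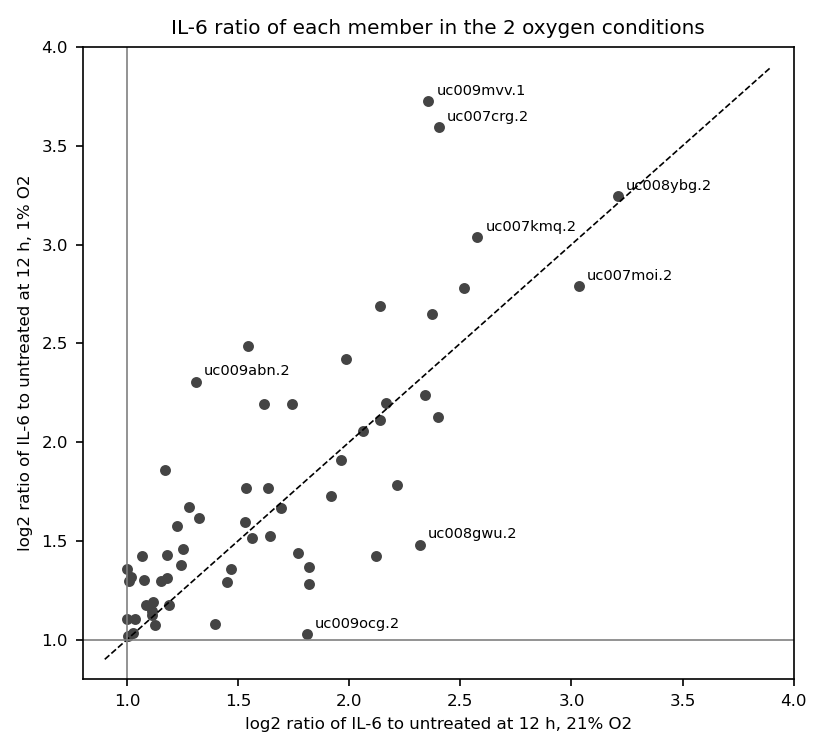
Ratio of IL-6 to untreated level at 12 h for each of the 60 members, on the log2 scale, in hypoxia (vertical axis) and normoxia (horizontal axis); grey lines mark the threshold of the rule and the dashed line equal ratios. The identifiers uc009mvv.1 and uc007crg.2 lie farthest above the dashed line and uc008gwu.2 and uc009ocg.2 farthest below it.

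The largest excess in hypoxia was in uc009mvv.1, which was at 132, 46.3 and 30.9 CPM with IL-6 in hypoxia, against 6.71, 4.39 and 3.35 CPM untreated, a ratio of 13.2. In normoxia it was at 72.3, 50.1 and 51.9 CPM with IL-6, against 5.82, 8.49 and 18.6 CPM untreated, a ratio of 5.11. The IL-6 libraries of both conditions overlapped, and the normoxia untreated libraries spread over 3-fold. The second, uc007crg.2, was at 1012, 523 and 592 CPM with IL-6 in hypoxia, against 78.4, 41.7 and 54.6 CPM untreated, a ratio of 12.1. In normoxia it was at 262, 284 and 327 CPM with IL-6, against 60.0, 50.3 and 53.6 CPM untreated, a ratio of 5.29. Its untreated libraries overlapped between the oxygen conditions, and all its hypoxia IL-6 libraries lay above all normoxia IL-6 libraries. The third, uc009abn.2, had the same arrangement, at 275, 128 and 134 CPM with IL-6 in hypoxia, against 44.6, 29.9 and 32.9 CPM untreated, and at 80.0, 58.4 and 72.1 CPM with IL-6 in normoxia, against 25.2, 20.3 and 38.5 CPM untreated.

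In the other direction, uc008gwu.2 had ratios of 2.79 in hypoxia and 4.98 in normoxia. Its IL-6 levels were close, at 31.5, 29.7 and 39.4 CPM in hypoxia and 27.8, 26.6 and 26.6 CPM in normoxia, and its untreated levels were 12.3, 6.90 and 15.9 CPM in hypoxia and 4.33, 3.24 and 7.5 CPM in normoxia. For uc009ocg.2 the ratios were 2.04 and 3.50. It was at 806, 598 and 782 CPM with IL-6 in hypoxia, against 310, 311 and 449 CPM untreated, and at 268, 698 and 412 CPM with IL-6 in normoxia, against 69.6, 194 and 128 CPM untreated. The third, uc009dkt.2, had ratios of 2.68 and 4.35.

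**Figure D3:**
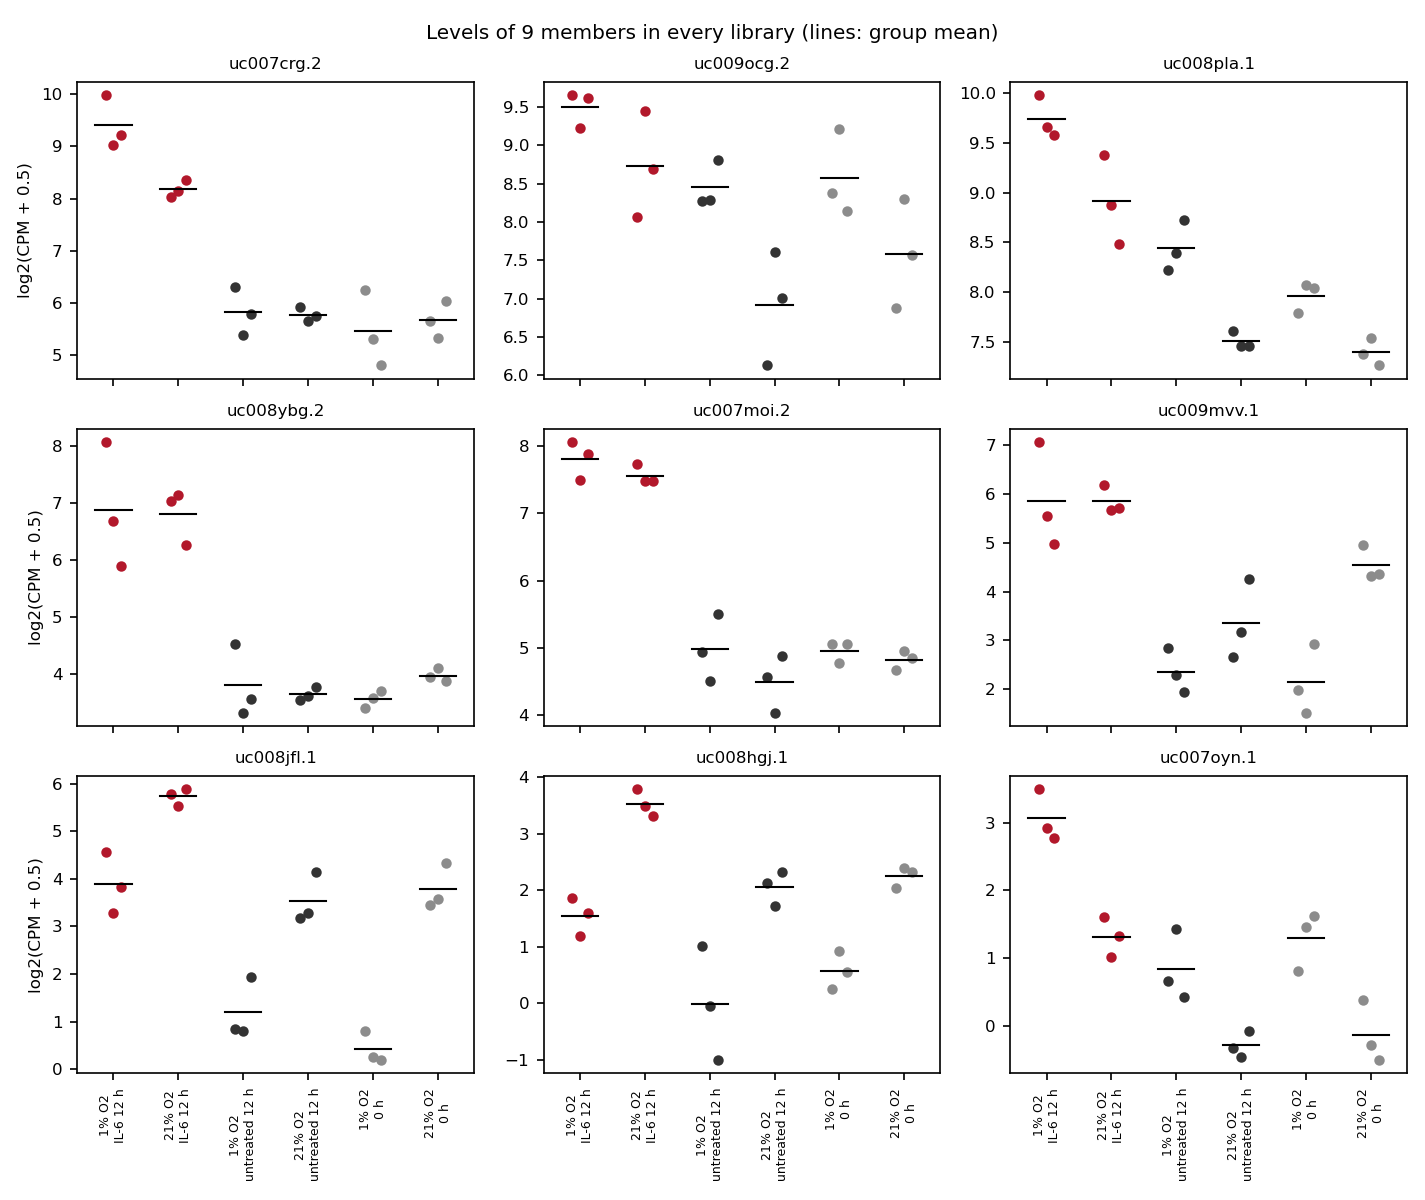
Level of 9 members in every library, as log2(CPM + 0.5), with 1 point per library, replicates 1 to 3 from left to right, and a line at the group mean; red points are IL-6 libraries, black points untreated 12 h and grey points 0 h. In all 9 panels the IL-6 points lie above the untreated 12 h points of the same oxygen condition, and in the panels of uc008jfl.1 and uc008hgj.1 every hypoxia point lies below the normoxia points of the same state.

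The 0 h libraries took no part in the rule and show where the members stood before stimulation. Because low untreated values at 12 h favour membership, the comparison of 12 h with 0 h is given without a test. Untreated 12 h and 0 h libraries overlapped for 54 of 60 members in hypoxia and 55 of 60 in normoxia. In hypoxia 6 members were higher at 12 h without overlap, where 6.50% of all identifiers tested were, and 0 were lower, where 2.60% were. In normoxia 1 was higher, where 2.23% were, and 4 were lower, where 2.57% were. The median log2 ratio of untreated 12 h to 0 h was 0.11 in hypoxia and -0.06 in normoxia over the members, beside 0.12 and -0.01 over all identifiers tested. It was within 1 of 0 for 57 members in hypoxia and 58 in normoxia.

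The members that did not overlap were led by uc008ybl.2, whose mean in hypoxia was 9.04 CPM at 12 h untreated, against 2.93 CPM at 0 h. The others that were higher there were uc007yhx.1, uc008jfl.1, uc008pla.1, uc009oco.1 and uc009ukl.2. In normoxia uc009mvv.1 was at 5.82, 8.49 and 18.6 CPM at 12 h untreated, against 30.3, 19.5 and 20.1 CPM at 0 h, and uc012ghn.2 averaged 9.10 CPM ± 0.76 against 19.4 CPM ± 3.79 (SD, n = 3 each). With TMM-scaled CPM, an alternative added after the data were seen, 4 members were higher and 1 lower in hypoxia, and uc007yhx.1, uc008jfl.1 and uc008pla.1 overlapped. In normoxia that scaling gave 3 higher and 5 lower, the members named here included. The shares of all identifiers under TMM scaling were not computed, so its counts have no background beside them. The other members lower at 12 h in normoxia were uc007ush.1 and uc008ybg.2, and uc007jqo.1 was higher. All 3 IL-6 libraries exceeded all 3 libraries of 0 h for 51 members in hypoxia, where 8.25% of identifiers tested did, and for 53 in normoxia, where 4.04% did. The rule favours high IL-6 values, so nothing is read from these counts. The median log2 ratio of IL-6 at 12 h to 0 h was 1.67 in hypoxia and 1.43 in normoxia, beside 0.09 and -0.02 over all identifiers tested.

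Oxygen itself was not part of the rule, and the members were set against it with edgeR's quasi-likelihood test across all 13432 identifiers, with a member called where its p after Benjamini-Hochberg adjustment was under 0.05. At 0 h, in libraries that took no part in the rule, 9 of 60 members differed between hypoxia and normoxia. These libraries carry the same replicate numbers as those of 12 h, and whether they share a source with them is not given. Of these, 4 were higher in hypoxia, where 2.13% of all identifiers tested were called higher, and 5 were lower, where 2.82% were called lower. A further 18 members had an unadjusted p under 0.05 without passing the adjusted threshold. The share of all identifiers with such a p was not computed, so nothing is read from this number. The median log2 fold change of the members was 0.10, beside 0.04 over all identifiers, with 32 members above 0 and 28 below. Without hypoxia 0 h replicate 1 or normoxia 0 h replicate 2 the median of the members was -0.06. The members were split between both directions, and of the 56 with a 12 h mean over 2 CPM in both oxygen conditions 7 were called, 3 higher and 4 lower.

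The lowest in hypoxia was uc008jfl.1. It was at 1.24, 0.701 and 0.648 CPM in hypoxia at 0 h, from 9, 5 and 2 counts, against 10.4, 11.5 and 19.5 CPM in normoxia. This gave a log2 fold change of -3.79, with an SE of 0.45 (edgeR adjusted p = 0.000136). At 12 h untreated it was at 1.30, 1.25 and 3.35 CPM in hypoxia, against 8.51, 9.16 and 17.2 CPM in normoxia (log2 fold change -2.61, SE 0.42, edgeR adjusted p = 0.00157). With IL-6 it was at 23.2, 9.17 and 13.8 CPM in hypoxia, against 54.7, 45.8 and 58.3 CPM in normoxia (log2 fold change -1.76, SE 0.34, edgeR adjusted p = 0.00791). Hypoxia libraries lay below normoxia libraries in all 3 states, and the hypoxia libraries with IL-6 overlapped the normoxia libraries of 12 h without it.

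The identifier uc008hgj.1 also had its lower values in hypoxia in all 3 states. At 0 h it was at 0.691, 1.40 and 0.971 CPM in hypoxia, against 3.59, 4.78 and 4.52 CPM in normoxia (log2 fold change -1.93, SE 0.47, edgeR adjusted p = 0.0225). At 12 h untreated it was at 1.52, 0.470 and 0 CPM in hypoxia, from 7, 3 and 0 counts, against 3.88, 2.79 and 4.48 CPM in normoxia. The count of 0 allows up to 0.836 CPM in that library. With IL-6 it was at 3.12, 1.77 and 2.53 CPM in hypoxia, against 13.3, 10.7 and 9.47 CPM in normoxia. The groups did not overlap in any state. This member reached the level of the rule through normoxia, so its 12 h values are a description. The 0 h libraries may share a source with those of 12 h, so its 0 h test may not be free of this choice.

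The opposite order was seen in uc007oyn.1. At 0 h it was at 1.24, 2.24 and 2.59 CPM in hypoxia, against 0.798, 0.319 and 0.205 CPM in normoxia, from 9, 16 and 8 counts against 4, 3 and 2 (log2 fold change 2.42, SE 0.56, edgeR adjusted p = 0.0150). At 12 h untreated it was at 1.08, 2.20 and 0.836 CPM in hypoxia, against 0.299, 0.223 and 0.448 CPM in normoxia. With IL-6 it was at 10.7, 7.10 and 6.32 CPM in hypoxia, against 2.54, 1.53 and 2.0 CPM in normoxia. It reached the level of the rule through hypoxia, so the 12 h values are likewise a description, and its 0 h test has the same limit as that of uc008hgj.1. These normoxia untreated values rest on 2 to 4 counts a library. This member is the third scarcest of the 60.

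Of the other members called at 0 h, uc009mvv.1 was lower in hypoxia, at 3.45, 2.38 and 7.12 CPM against 30.3, 19.5 and 20.1 CPM in normoxia (log2 fold change -2.37, SE 0.55, edgeR adjusted p = 0.0149). Its log2 fold change was -1.15 (SE 0.53) at 12 h untreated and 0.28 (SE 0.47) with IL-6, and neither passed. The identifiers uc008iov.2 and uc056yvl.1 were lower by log2 fold changes of -2.02 (SE 0.35) and -1.38 (SE 0.33). Higher in hypoxia were uc007atd.2, uc007jqo.1 and uc007hzi.2, with log2 fold changes of 1.89 (SE 0.44), 1.43 (SE 0.38) and 1.25 (SE 0.35). All 9 kept their direction within lane 3, which held 1 hypoxia and 2 normoxia libraries of 0 h. Those libraries also gave the calls, so this is a description and not a separate check on lane. The 9 calls became 5 without hypoxia 0 h replicate 1, beside 2.64% of all identifiers called. They became 5 without normoxia 0 h replicate 1 (2.99%) and 3 without normoxia 0 h replicate 2 (2.53%). In the main fit 4.95% of all identifiers were called. Only uc008jfl.1 and uc008iov.2 kept their calls in every alternative run. The other 7 each lost the call without 2 or more single libraries, at adjusted p from 0.0507 to 0.187.

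At 12 h without treatment 9 members again differed, 5 higher in hypoxia, where 1.94% of all identifiers were called higher, and 4 lower, where 3.57% were called lower. The 12 h libraries entered the rule, through the IL-6 ratios and through the mean level over both oxygen conditions. Of these 9 members, uc007oyn.1, uc056zbt.1 and uc008hgj.1, reached that level through 1 condition only, so a difference between conditions was built into their choice and no test is read from them at 12 h. Their means over the 6 libraries of 12 h were 4.71, 5.16 and 1.57 CPM in hypoxia, against 1.17, 1.5 and 7.43 CPM in normoxia. Among the 56 members over 2 CPM in both conditions, a restriction added after the data were seen, 6 were called, 3 in each direction. Besides uc008jfl.1, uc009ojx.1 was lower, at 58.9, 40.3 and 48.8 CPM in hypoxia against 96.2, 77.5 and 95.7 CPM in normoxia (log2 fold change -0.86, SE 0.18, edgeR adjusted p = 0.00850), and uc056yvl.1 was lower with a log2 fold change of -1.44 (SE 0.33). The most abundant member, uc008pla.1, was higher by 0.96 on the log2 scale (SE 0.23, edgeR adjusted p = 0.0219). The rest of those higher were uc008nve.1 and uc009ocg.2, with log2 fold changes of 1.49 (SE 0.42) and 1.46 (SE 0.41). The direction of these 6 was kept between the 2 libraries that shared lane 3, 1 of each condition. Both libraries also gave the calls, so this is likewise no separate check on lane. Over all 60 members, leaving out hypoxia 12 h untreated replicate 1 gave 4 calls, beside 2.82% of all identifiers called. Leaving out replicate 2 of that group or any 1 of the normoxia 12 h untreated libraries gave 5. The share of all identifiers was then 3.08% to 3.44%, against 5.52% in the main fit. The calls of uc008nve.1, uc008pla.1 and uc009ocg.2 were each lost without 4 or more single libraries, with adjusted p between 0.0547 and 0.177. Without hypoxia replicate 1 uc056yvl.1 did not pass either, at an adjusted p of 0.0768.

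With IL-6 present 7 members differed, 4 higher in hypoxia, where 1.34% of all identifiers were called higher, and 3 lower, where 1.56% were called lower. Among these 7 are uc007oyn.1, uc056zbt.1 and uc008hgj.1, from which no test is read at 12 h. Of the 56 members over 2 CPM in both conditions 4 were called, 2 in each direction. The median log2 fold change of all members was 0.28, beside 0.03 over all identifiers, and without hypoxia IL-6 replicate 1 it was -0.02, beside 0.03. Here uc009abn.2 and uc007crg.2 were higher, by 1.37 (SE 0.26, edgeR adjusted p = 0.00692) and 1.31 (SE 0.30, edgeR adjusted p = 0.0199) on the log2 scale. At 0 h their log2 fold changes were -0.03 (SE 0.26) and 0.01 (SE 0.30), and at 12 h untreated 0.37 (SE 0.26) and 0.09 (SE 0.30), none of which passed. Also called were uc008jfl.1, described above, and uc009ojx.1 with a log2 fold change of -0.80 (SE 0.18). These 4 kept their direction within lane 6, which held 1 library of each condition, both among those that gave the calls. Within that lane the log2 differences of uc009abn.2 and uc007crg.2 were 1.12 and 0.88. Within lane 3 they were 1.11 and 0.64 at 12 h untreated and -0.07 and 0.75 at 0 h. Whether their oxygen difference depends on IL-6 was not tested. Without hypoxia IL-6 replicate 1, the deepest library, 3 of all 60 members were called, 0 of them higher, beside 1.30% of all identifiers. The log2 fold change of uc009abn.2 was then 0.94 (edgeR adjusted p = 0.0690). Without normoxia IL-6 replicate 3 there were 4 calls, beside 1.57% of all identifiers, against 2.90% in the main fit. Hypoxia IL-6 replicate 2 decided the call of uc008jfl.1 (edgeR adjusted p = 0.0630 without it). The calls of uc007crg.2 and uc009ojx.1 were each lost without 2 or more single libraries, at adjusted p from 0.0670 to 0.162.

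**Figure D4:**
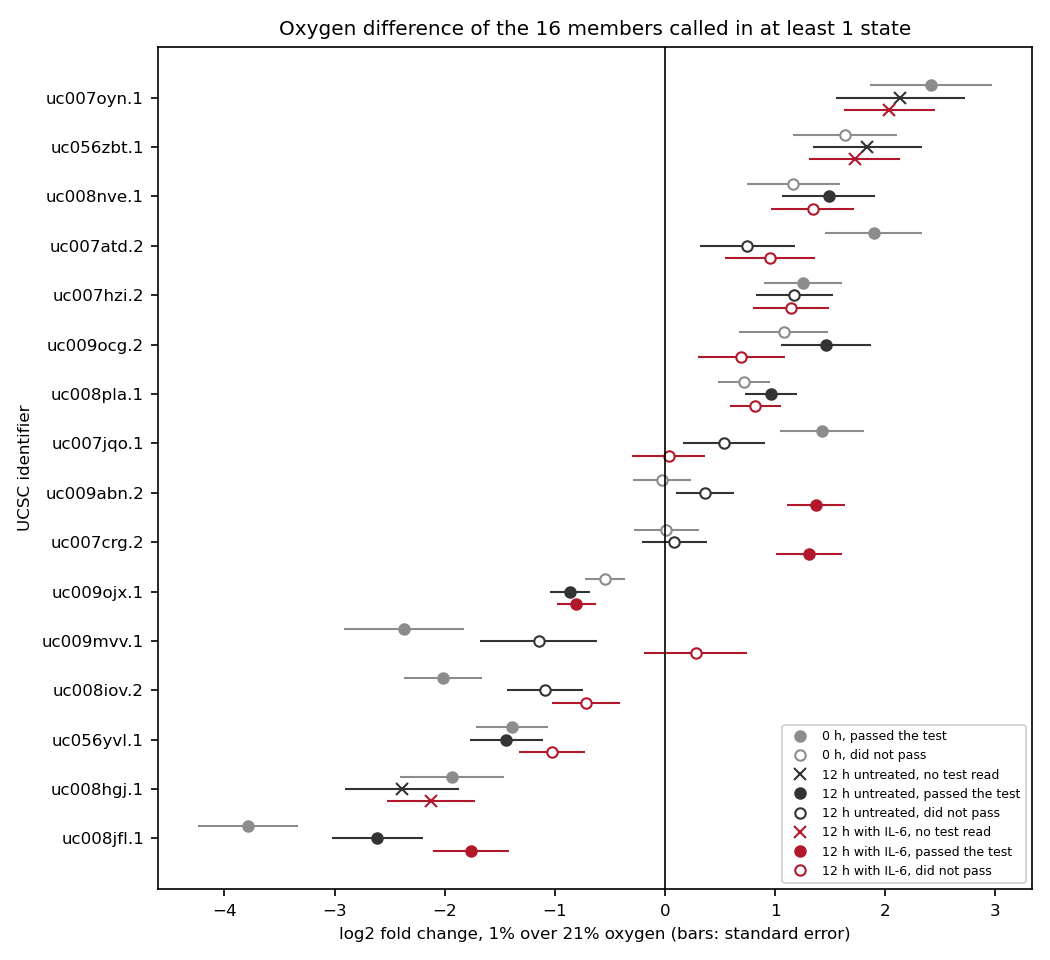
Log2 fold change of hypoxia over normoxia with its standard error for the 16 members called in at least 1 of the 3 states, at 0 h, at 12 h untreated and at 12 h with IL-6 (filled circles passed edgeR's test at adjusted p under 0.05, open circles did not, and crosses mark 12 h values of 3 members from which no test is read). The values run from -3.79 for uc008jfl.1 at 0 h to 2.42 for uc007oyn.1 at 0 h, and uc007crg.2 and uc009abn.2 passed only with IL-6.

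Over the 3 states 16 members passed the threshold at least once, including the 3 that met the level of the rule through 1 condition. The share of all identifiers called in at least 1 state was not computed, so nothing is read from this count. Of the 16, 9 had a positive log2 fold change in all 3 states, 5 a negative one in all 3 and 2, uc009mvv.1 and uc009abn.2, had signs that differed. Libraries of the same number within an oxygen condition may not be independent across states, and the main fit took no account of this. The 44 members called in no state include 31 that no rule for naming picked out, a few of which appear in the 0 h comparison and among the neighbouring rows. Those 31 averaged 3.17 to 195 CPM at 12 h, with IL-6 ratios of 2.11 to 6.28 in hypoxia and 2.03 to 5.28 in normoxia, and their log2 fold changes for oxygen ran from -1.96 to 1.26 at 0 h, from -1.61 to 0.82 at 12 h untreated and from -1.55 to 0.83 with IL-6.

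Some members stand close together in the row order of the table, which may reflect transcripts of 1 gene or of neighbouring genes; the files do not say. The identifiers uc007kmp.1 and uc007kmq.2 are in adjacent rows, and so are uc009dks.2 and uc009dkt.2. Their log2 levels over the 18 libraries had Pearson correlations of 0.90 and 0.83. The identifiers uc008ybg.2 and uc008ybl.2 are 5 rows apart (0.92), uc007owv.1 and uc007oxd.1 6 rows (0.56) and uc009ocg.2 and uc009oco.1 8 rows (0.59). These are descriptions, since all members share the IL-6 difference and the library depths.

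Near the thresholds of the rule, uc007oxd.1 and uc007nwo.2 were just inside the level, at 2.37 and 2.52 CPM, and uc007kms.1 and uc008yht.1 just outside, at 1.64 and 1.56 CPM. For the ratio in hypoxia, uc008gyx.1 and uc009ocg.2 were just inside at 2.02 and 2.04, and uc007mlf.1 and uc009hnp.1 just outside at 1.99 and 1.98. For the ratio in normoxia, uc011yrf.1 and uc056zbt.1 were just inside, both at 2.0, and uc008iid.1 and uc008npr.1 just outside at 1.99 and 1.98. Only uc007cyg.2 and uc009gyx.1 met the level and both ratios but not the condition on pairs.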

How the data were processed

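Raw read counts for 63244 UCSC identifiers in 18 libraries were used as deposited, with no normalization by the authors. Ribosomal RNA had been removed and single-end reads of 50 bp sequenced, per the labels' protocols and the series' design text. The submitters' processing notes name mm10, TopHat2, HTSeq and DESeq2. Tool versions, counting mode and strand setting are not given in the sources used here. HTSeq summary rows (ambiguous, 46.5% ± 2.71, and outside features, 17.9% ± 4.26, of uniquely aligned reads; SD, n = 18) were left out of totals.

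CPM used column sums. Oxygen was tested with edgeR 4.0.16 (R 4.3.3) on all 18 libraries: filterByExpr by group, which kept 13432 identifiers, TMM scaling, 1 coefficient per group, the robust quasi-likelihood F-test and Benjamini-Hochberg adjustment over all identifiers tested. Each SE was taken as the size of the log2 fold change over the root of its F statistic. The procedure was tested on simulated data. A count of 0 allows up to 3 counts, 0.293 to 0.971 CPM by library, for counting error only. Alternatives included DESeq2 1.42.0, other scaling and filters, blocks, and leaving out libraries.

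The members and lists were chosen with earlier results of these data known. Members named one by one were the 6 most abundant, the 6 with the largest ratios, up to 4 called in each direction of each oxygen comparison, the 2 on each side of each threshold, and the 3 with the largest differences in ratio each way; others are named where a small count called for it and were chosen after their values were seen. Gene lists fixed by symbol could not be matched to these identifiers and were not analysed.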

Additional observations from a re-analysis of the deposited data

Results flagged for a closer look

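The change of uc008jfl.1 between 0 h and 12 h without treatment was flagged because every same-numbered pair moved one way in hypoxia and the other way in normoxia. In hypoxia the log2 ratio of untreated 12 h to 0 h was 0.85, with 1.30, 1.25 and 3.35 CPM at 12 h against 1.24, 0.701 and 0.648 CPM at 0 h. In normoxia it was -0.24, with 8.51, 9.16 and 17.2 CPM against 10.4, 11.5 and 19.5 CPM. With TMM-scaled CPM the first hypoxia pair went the other way, at 1.23 CPM at 12 h against 1.26 CPM at 0 h, and the hypoxia groups overlapped, so the pattern holds on raw CPM only. The difference between the oxygen conditions was not tested, and the hypoxia values rest on 2 to 12 counts a library.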

How the results depend on the processing

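The number of members called for hypoxia against normoxia varied with the fit, while each member called above kept its sign under all alternatives run. At 0 h, where 9 members and 4.95% of all identifiers were called, DESeq2 called 15 (6.43% of all), no filter on low counts gave 16 (2.46%) and only the 6 libraries compared gave 5 of the 57 members tested (2.71%). At 12 h untreated, also 9 (5.52%), DESeq2 called 13 (8.48%) and no filter on low counts gave 13 (2.96%). The fit on only the 6 libraries compared gave 2 of 55 tested there (2.65%). With IL-6, where 7 (2.90%) were called, DESeq2 called 12 (4.54%), only the 6 libraries compared gave 3 (1.17%), and 11 (4.57%) were called without the 3 hypoxia libraries of number 3. Over the 56 members above 2 CPM in both oxygen conditions, a restriction added after the data were seen, the calls were 7, 6 and 4 in the 3 states. With TMM-scaled CPM, also added, members without overlap between untreated 12 h and 0 h were 4 higher and 1 lower in hypoxia. In normoxia they were 3 higher and 5 lower, and raw CPM gave 6, 0, 1 and 4 in that order. Shares of all identifiers were not computed for the TMM scaling. Leaving out 1 library gave 3 to 9 calls at 0 h, 4 to 6 at 12 h untreated and 3 to 6 with IL-6. The shares of all identifiers called were then 2.53% to 4.68%, 2.82% to 3.58% and 1.30% to 2.51%. With the replicate block the calls were 27, 20 and 19 in that order of states, while calls over all identifiers went up to 11.0%, 12.8% and 7.39%. With the replicate block and lane they were 22, 14 and 20, and 18.3%, 13.2% and 14.5% of all identifiers. Deviations of same-numbered libraries across oxygen conditions correlated at 0.32, 0.48 and 0.50 for replicate 2 and 0.10, 0.16 and 0.49 for replicate 3. For replicate 1 they were at -0.03, -0.03 and -0.04. Those of unlike numbers ran from -0.60 to 0.32. Whether the numbers are pairs across oxygen is not settled by these values, and the main fit took no account of pairs. Over all identifiers at 0 h the median log2 ratio of group means was -0.10 on raw CPM. The median of edgeR's log2 fold changes with TMM scaling was 0.04. These values also differ in how the change was estimated, so the gap is not from scaling alone.

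The rule found 165 identifiers with a ratio of 1.5 and 21 with a ratio of 3 in place of 2. Under the other 7 settings tried it found 43 to 71, with 59 of the 60 members kept with TMM-scaled CPM. Without replicate 1 it found 53 and kept 46 members, without replicate 2 67 and 55, and without replicate 3 69 and 56. With a pseudocount of 2 the median log2 ratio in normoxia was 1.28. Members under 10 CPM are limited by depth, and 3 members had a count of 0 in at least 1 library.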
